A study of Rattus norvegicus with 8 samples.

Results

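Glutamate, the main excitatory transmitter of the dentate gyrus, is packed into synaptic vesicles by the vesicular transporters Slc17a7 (VGLUT1), Slc17a6 (VGLUT2) and Slc17a8 (VGLUT3). After release it is cleared by the plasma membrane transporters Slc1a2 (GLT-1) and Slc1a3 (GLAST), carried mainly by astrocytes, and by the neuronal Slc1a1 (EAAC1) and Slc1a6 (EAAT4). Astrocytes turn it into glutamine with glutamine synthetase (Glul), and mitochondria feed it into the citric acid cycle through glutamate dehydrogenase (Glud1). These 9 genes were chosen by name: a gene was a member when the annotation of a spot on the array carried its symbol. All 9 were found among the 35250 gene names on the array, with 15 probes and 42 spots per array, and all 42 spots passed the filter on dim spots in every rat.

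The question was whether the level of these transcripts differed between castrated (ovariectomized) rats that went through status epilepticus (SE) with and without estradiol (E2) replacement. The rats were adult female Sprague-Dawley, operated 1 week before hormone treatment, and all of them received kainic acid, a convulsant glutamate receptor agonist, at 16 mg/kg into the peritoneum, with SE ended by pentobarbital after 5 h. COS rats (4) had received the oil vehicle. CES rats (4) had received E2 in 4 daily injections of 2 µg, of which the sample descriptions place 2 before SE and 2 after it. The study's methods give another timing of the injections, another kainic acid dose and another drug to end SE, and give the time of tissue collection in more than 1 way, and the files do not settle which applied. Rats without SE were not analysed here, so no value below is a response to SE itself. RNA came from the whole dentate gyrus, in which fewer cells of a type and less RNA per cell cannot be told apart.

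Each rat was 1 colour channel of a 2-colour Agilent array. Rats 1 and 3 of each group were labelled with Cy3 and rats 2 and 4 with Cy5, and each of the 4 arrays on the slide held a pair of rats of the same group. Valid spots, with foreground at least 2 times the local background, made up 74.6 to 88.9% of the spots in the COS rats and 70.7 to 81.5% in the CES rats. A level here is the log2 of background-subtracted signal over the median valid signal of the same channel, averaged over the spots of a gene, so 0 is the channel's median. Levels of different genes come from different probes and are not set against each other. Differences are CES minus COS from limma, with their standard errors and a p adjusted over 21372 genes, where 1238 genes (5.79%) were called higher and 6054 (28.3%) lower in CES at an adjusted p under 0.05. The p-values measure only the spread between these rats.

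Of the 9 genes, 3 were called higher in CES (Slc17a7, Slc17a8 and Slc1a6), 2 were called lower (Slc17a6 and Glul), and Slc1a1, Slc1a2, Slc1a3 and Glud1 did not pass the test. The median difference of the 9 was 0.39, while that of all genes was −0.25. A centred difference is given below as a difference less this all-gene median. Centring puts as many genes above 0 as below it by construction, and the centred differences of the 9 were above 0 for 7 genes, of which 3 were called, and below 0 for Glul and Slc17a6. With loess normalization within arrays and Aquantile normalization between them, the calls over all genes shifted to 2916 higher (13.6%) and 2034 lower (9.52%), and 6 members were called higher and 1 lower. Scaling on the spots that were valid in every rat gave 15.7% of genes higher and 8.05% lower, again with 6 members higher and 1 lower. The 6 under both were Slc17a7, Slc17a8, Slc1a6, Slc1a1, Slc1a2 and Glud1, and the gene called lower was Slc17a6. The directions given below held under all 23 processing alternatives (22 for Slc1a6 and 21 for Slc17a8, which stricter filters removed), except that of Slc1a3. Not all of these could change a direction. Dropping the array block or the dye term, a replicate block and the methods' t-test changed only the test. Dropping the filter or using the names of the files left the members' differences as they were.

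CES rat 2 often lay closer to the COS rats than the other CES rats did. It was the CES rat nearest to the COS mean for 7 of the 9 genes and for 53.6% of all 7292 genes called, and CES rat 3 for 35.5%. Without CES rat 2, 8862 genes were called, with 5 members higher and 2 lower. Without COS rat 3, 1194 genes were called, with 1 member higher (Slc17a8) and 0 lower.

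**Figure D1:**
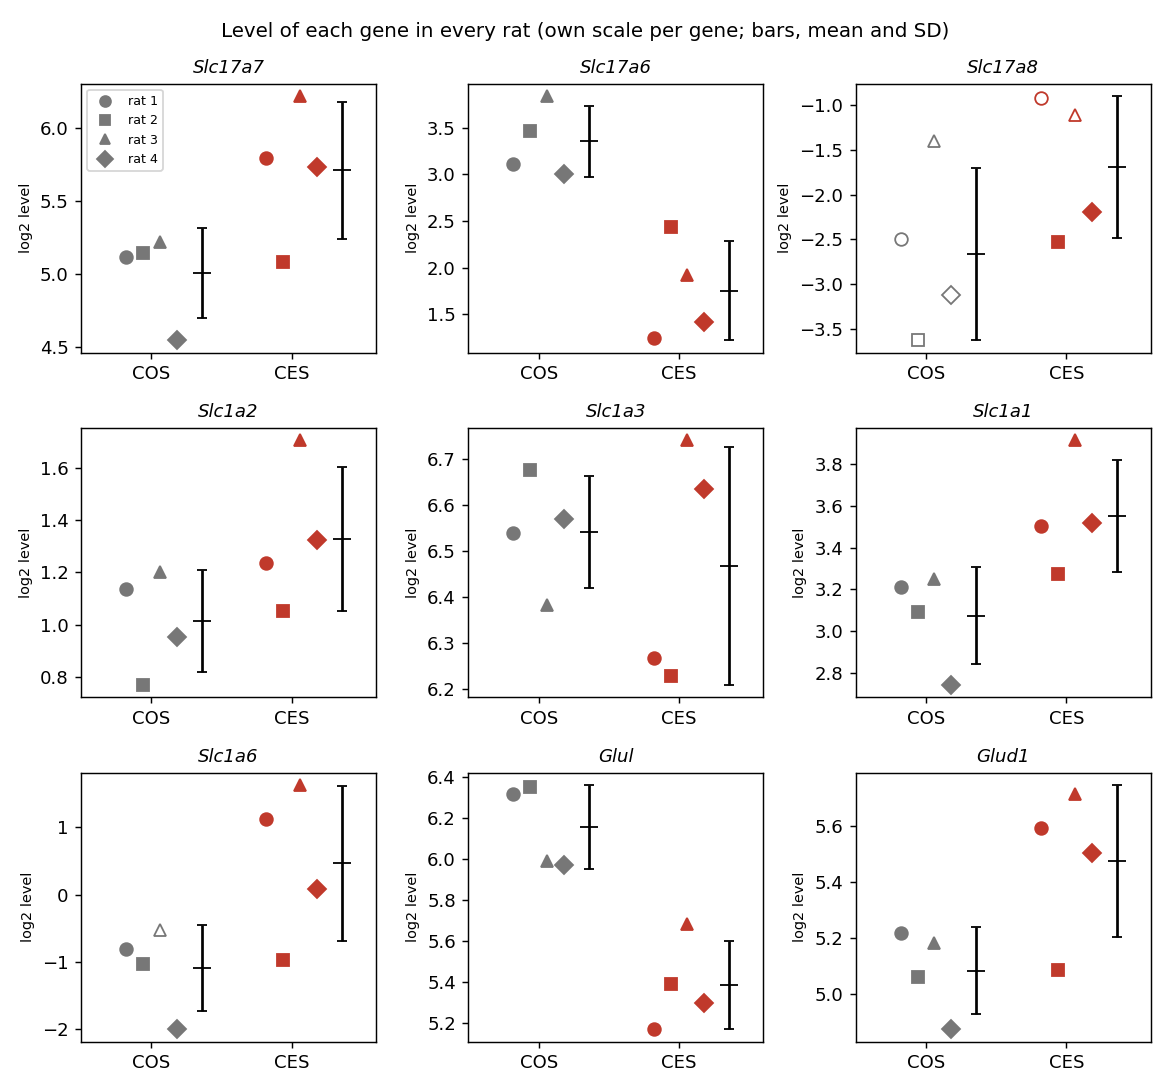
Log2 level (y axis, own scale in each panel) of the 9 genes in every COS (grey) and CES (red) rat, with mean and SD (n = 4 rats) as black bars. Open symbols are rats in which no probe of the gene was well above background. All CES rats lie below all COS rats for Slc17a6 and Glul and above them for Slc1a1.

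The vesicular transporters moved in opposite directions. Slc17a6, which loads vesicles mainly in subcortical glutamate neurons, had log2 levels of 3.11, 3.46, 3.84 and 3.00 in COS rats 1 to 4 and of 1.24, 2.43, 1.92 and 1.42 in the CES rats. The highest CES rat was thus below the lowest COS rat. The difference was −1.60 (standard error 0.29, adjusted p = 0.00526), a 3.03-fold lower level in CES, and the centred difference was −1.34. Over all genes, 19.8% had every CES rat below every COS rat and 1.61% had every CES rat above. The probe for Slc17a6 (rn4 chr1:101465828-101465887, plus strand) was printed on 10 spots, whose log2 values within a rat had an SD of 0.25 to 0.32. Between rats the SD was 0.38 in COS and 0.53 in CES. Slc17a6 was called in 20 of 23 alternatives. It was not called without COS rat 3, the COS rat with the highest level, where the difference was −1.37 (adjusted p = 0.0541), with normexp background correction (adjusted p = 0.0677) or with the methods' t-test (adjusted p = 0.0773).

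Slc17a6 is also a marker of the thalamus, which lies under the hippocampus, so thalamic genes were read beside it. Of 6 thalamus markers, none was called higher in CES and 2 were called lower, beside 5.79% and 28.3% of all genes. The share called lower was thus near that of all genes. The 2 were Prkcd (difference −1.90, adjusted p = 0.0092) and Ramp3 (−0.63, adjusted p = 0.0288). Tcf7l2 had a difference of 0.07, and Lef1 (−0.42) and Gbx2 (−0.44) were not called either. The summed linear level of the list ran from 11.6 to 22.1 in COS rats and from 4.68 to 11.4 in CES rats, and 3 of the 6 were well above background in every rat. Prkcd, with a mean log2 level of 3.67 in COS, made up most of this sum in the COS rats, and Tnnt1 had a difference of 0.10. The part of these markers in the Slc17a6 difference was not tested.

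Slc17a7, the vesicular transporter of most cortical and hippocampal glutamate neurons, had log2 levels of 5.12, 5.15, 5.22 and 4.55 in the COS rats and of 5.80, 5.09, 6.22 and 5.74 in the CES rats. CES rat 2 lay within the COS range, and the other CES rats lay above it. The difference was 0.70 (standard error 0.22, adjusted p = 0.0317), or 1.63-fold, and the centred difference was 0.96. The call was lost when most single rats were left out. The adjusted p was 0.0992 without COS rat 1, 0.113 without COS rat 3, 0.102 without COS rat 4, 0.0788 without CES rat 1, 0.0537 without CES rat 3 and 0.0505 without CES rat 4. Without CES rat 2 the difference was 0.86.

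Slc17a7 had a pair of probes that did not give the same picture. The probe with the higher signal (A_44_P545447, chr1:95652309-95652368, plus strand) had a difference of 0.73 between group means. The other probe (A_44_P505721, chr1:95649107-95649166) had a difference of 0.10, with CES rats at 2.03, 1.16, 2.79 and 2.37 on both sides of the COS rats at 2.10, 1.94, 2.24 and 1.66. Since the gene value averages signals before the logarithm, it follows the brighter probe. The sequence of this second probe is shown because it gave the smaller difference. It has no stop codon in 2 of its 3 forward frames, and no letters are in capitals because no part of it was singled out.
Slc17a7 A_44_P505721: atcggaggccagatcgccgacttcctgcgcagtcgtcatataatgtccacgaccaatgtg

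A value free of the channel scaling was the log2 ratio of Slc17a7 to Slc17a6 within a rat, which was chosen after both genes had been seen and whose own size also depends on the probes. It was 2.01, 1.69, 1.38 and 1.55 in the COS rats and 4.55, 2.66, 4.30 and 4.32 in the CES rats. No CES rat overlapped the COS rats, and the group means differed by 2.30. The Slc17a7 value in this ratio follows its brighter probe. With the other probe in its place, whose difference was 0.10, CES rat 2 fell within the COS range of the ratio.

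Slc17a8, the third vesicular transporter, found in a few neuron types that use other transmitters too, was close to background. Its single probe (chr7:26362333-26362392, minus strand) was well above background in none of the COS rats and in CES rats 2 and 4. Log2 levels were −2.50, −3.63, −1.40 and −3.12 in the COS rats and −0.92, −2.53, −1.11 and −2.20 in the CES rats. Within each dye, both CES rats lay above both COS rats, but the groups overlapped. Measured means were −2.66 ± 0.96 in COS and −1.69 ± 0.80 in CES (SD, n = 4), with a fitted difference of 0.97 (adjusted p = 0.0159). Since no COS rat, and neither of the CES rats with the highest values, was well above background, no fold is given. The call was lost without COS rat 1 (adjusted p = 0.0526), without CES rat 1 (0.0615), with no filter on valid spots (0.0623) and with the methods' t-test (0.373). With normexp background correction the difference was only 0.11 (adjusted p = 0.964). The probe is given as the sole basis of these values.
Slc17a8 A_44_P404812: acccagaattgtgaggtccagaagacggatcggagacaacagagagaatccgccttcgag

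**Figure D2:**
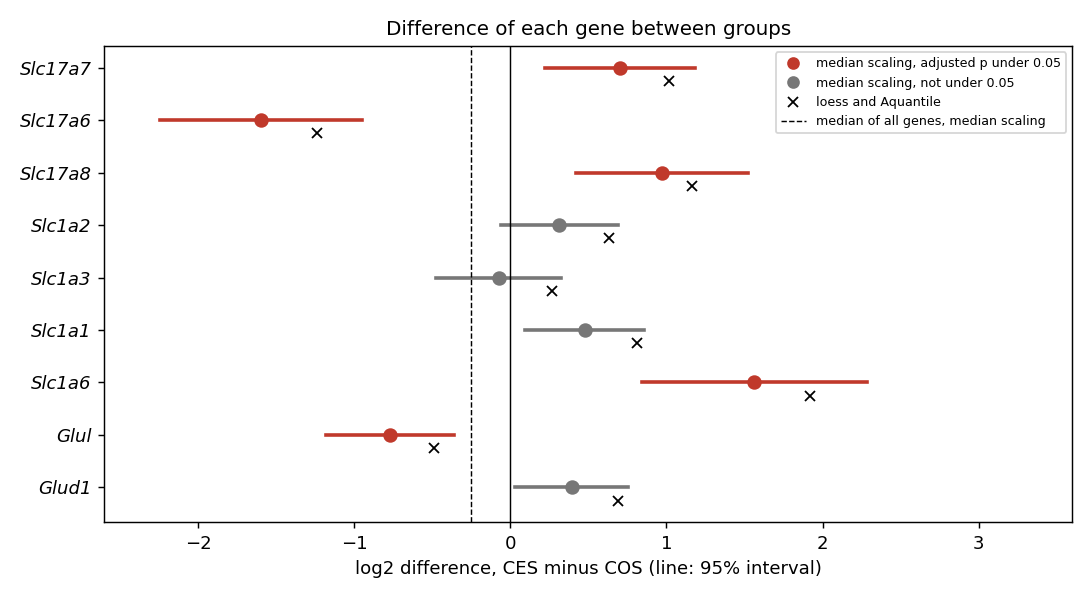
Log2 difference CES minus COS of the 9 genes (x axis) with 95% intervals from limma, under median scaling (points) and under loess and Aquantile normalization (crosses). The dashed line at −0.25 is the median of all genes under median scaling. Crosses lie to the right of the points for all 9 genes, and that of Slc1a3 lies on the other side of 0.

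Among the plasma membrane transporters, Slc1a6 showed the only called difference under median scaling. Slc1a6 (EAAT4) is best known from Purkinje cells of the cerebellum and is sparse in the forebrain. Its log2 levels were −0.81, −1.04, −0.52 and −2.01 in the COS rats and 1.12, −0.97, 1.63 and 0.08 in the CES rats. CES rats 1, 3 and 4 lay above all COS rats, and CES rat 2 lay within their range. The difference was 1.56 (standard error 0.32, adjusted p = 0.00749), or 2.95-fold, and the centred difference was 1.82. All CES rats, and all COS rats but rat 3, showed the probe well above background. Slc1a6 was called in 19 of the 22 alternatives in which it was quantified. Without COS rat 3 the adjusted p was 0.0627, and with normexp background correction the difference was 0.99 (adjusted p = 0.162). With the methods' t-test the adjusted p was 0.208. Its only probe lies across an intron on rn4, since its 60 bases span chr7:12393594-12395053 (minus strand), 1460 bases of genome.
Slc1a6 A_44_P523524: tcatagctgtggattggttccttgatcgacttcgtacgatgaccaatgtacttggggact

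Slc1a1, the transporter of neuronal cell bodies and dendrites, had log2 levels of 3.21, 3.09, 3.25 and 2.74 in the COS rats and of 3.50, 3.27, 3.91 and 3.52 in the CES rats. Every CES rat was above every COS rat, with CES rat 2 only just above COS rat 3. The difference of 0.48 (standard error 0.17) missed the threshold (adjusted p = 0.0539). The centred difference was 0.73. Slc1a1 passed the test with loess and Aquantile normalization (adjusted p = 0.0172) and without CES rat 2 (adjusted p = 0.0421). Its probe was also printed on 10 spots, with an SD of 0.20 to 0.37 within a rat.

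The astrocyte transporters had the smallest differences of the 9 genes under median scaling. Slc1a2, which carries most glutamate uptake in the forebrain, had log2 levels of 1.14, 0.77, 1.20 and 0.95 in the COS rats and of 1.24, 1.05, 1.71 and 1.32 in the CES rats. The groups overlapped through CES rat 2. The difference was 0.31 (95% interval −0.06 to 0.69, adjusted p = 0.175), and the centred difference was 0.57. Under loess and Aquantile normalization the difference was 0.63 and passed the test (adjusted p = 0.0339).

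Slc1a2 was read by a pair of probes. A_44_P545654 (chr3:87988361-87988420, plus strand) had a difference of 0.33, with COS rats at 4.12, 3.80, 4.17 and 4.06 and CES rats at 4.19, 4.29, 4.70 and 4.29, so that all CES rats lay above all COS rats. A_44_P226231, designed on another transcript record of the gene and printed on 10 spots, had a difference of 0.21 with overlapping groups. The first is shown because it separated the groups.
Slc1a2 A_44_P545654: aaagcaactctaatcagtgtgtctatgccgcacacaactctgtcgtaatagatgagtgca

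Slc1a3, the second astrocyte transporter, had log2 levels of 6.54, 6.68, 6.38 and 6.57 in the COS rats and of 6.27, 6.23, 6.74 and 6.63 in the CES rats. CES rats 1 and 2, which shared an array, lay below all COS rats, CES rat 3 lay above them and CES rat 4 lay within their range. The difference was −0.07 (95% interval −0.47 to 0.33, adjusted p = 0.776), and its sign turned under 7 alternatives, to 0.27 with loess and Aquantile normalization. The centred difference was 0.18. No alternative called Slc1a3.

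Glul, the astrocyte enzyme that makes glutamine from glutamate, was lower in CES. Log2 levels were 6.32, 6.35, 5.99 and 5.97 in the COS rats and 5.17, 5.39, 5.68 and 5.30 in the CES rats, with no overlap. The difference was −0.77 (standard error 0.18, adjusted p = 0.0122), or 1.71-fold, and the centred difference was −0.52. Both probes of Glul gave it, with differences of −0.72 and −0.84. The size depended on the scaling. It was −0.49 under loess and Aquantile normalization (adjusted p = 0.0540) and −0.37 when channels were scaled on the spots valid in every rat (adjusted p = 0.133), and neither was called. Without COS rat 3 the adjusted p was 0.0575 and without CES rat 1 it was 0.0544. In all, 13 of 23 alternatives called Glul.

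Slc1a2, Slc1a3 and Glul are all astrocyte genes, and astrocyte markers were read beside them. Of 12 astrocyte markers, 5 were called higher in CES (Aldh1l1, Gja1, Gjb6, Aldoc and Slc4a4) and 2 were called lower (S100b and Fgfr3). Of all genes, 5.79% were called higher and 28.3% lower. Sox9 (difference −0.38) and Kcnj10 (0.15) were not called. Gfap, the filament protein of reactive astrocytes, had a difference of −1.19 (adjusted p = 0.0618) and Aqp4, the water channel of their end feet, one of 0.04. The summed level of the list was 304 to 466 in COS and 379 to 616 in CES rats, and 9 of the 12 were well above background in every rat. Ndrg2, with a mean log2 level of 7.70 in COS and a difference of 0.22 that was not called, was the largest part of this sum in every rat. The part of the astrocyte markers in these differences was not tested.

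Glud1, which converts glutamate to 2-oxoglutarate, had log2 levels of 5.22, 5.06, 5.18 and 4.87 in the COS rats and of 5.59, 5.09, 5.71 and 5.50 in the CES rats. CES rats 1, 3 and 4 were above all COS rats and CES rat 2 was not. The difference of 0.39 (standard error 0.16) was not called (adjusted p = 0.0862). It passed the test without CES rat 2 (adjusted p = 0.0356) and with the brightest probe alone (0.80, adjusted p = 0.0124).

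The 3 probes of Glud1, all on the plus strand of rn4 chromosome 16, spread over 1.04 on the log2 scale, the widest spread of the 5 genes with more than 1 probe. The probe nearest the 3′ end of the gene (A_43_P14157, chr16:9999144-9999203) had a difference of 0.80, with COS rats at 5.41, 5.40, 5.38 and 5.22 and CES rats at 6.16, 5.67, 6.44 and 6.36, all above. The middle probe (A_44_P259908, chr16:9998014-9998073) had 0.29. The probe nearest the 5′ end (A_44_P472500, chr16:9994290-9995260, split over an intron) had −0.24. For Slc17a7 the probe nearer the 3′ end likewise had the larger difference, while for Slc1a2 and Slc1a3 the probe nearer the 3′ end had the lower signed value (0.21 against 0.33, and −0.13 against 0.08). Centring shifts the 3 Glud1 probes alike and leaves the spread between them as it is. The centred difference of the Glud1 probe nearest the 5′ end was 0.02. Its sequence and that of the middle probe are shown because they gave the smaller differences.
Glud1 A_44_P259908: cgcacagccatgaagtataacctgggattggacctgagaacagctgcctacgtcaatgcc
Glud1 A_44_P472500: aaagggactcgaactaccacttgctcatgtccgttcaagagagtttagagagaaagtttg

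**Figure D3:**
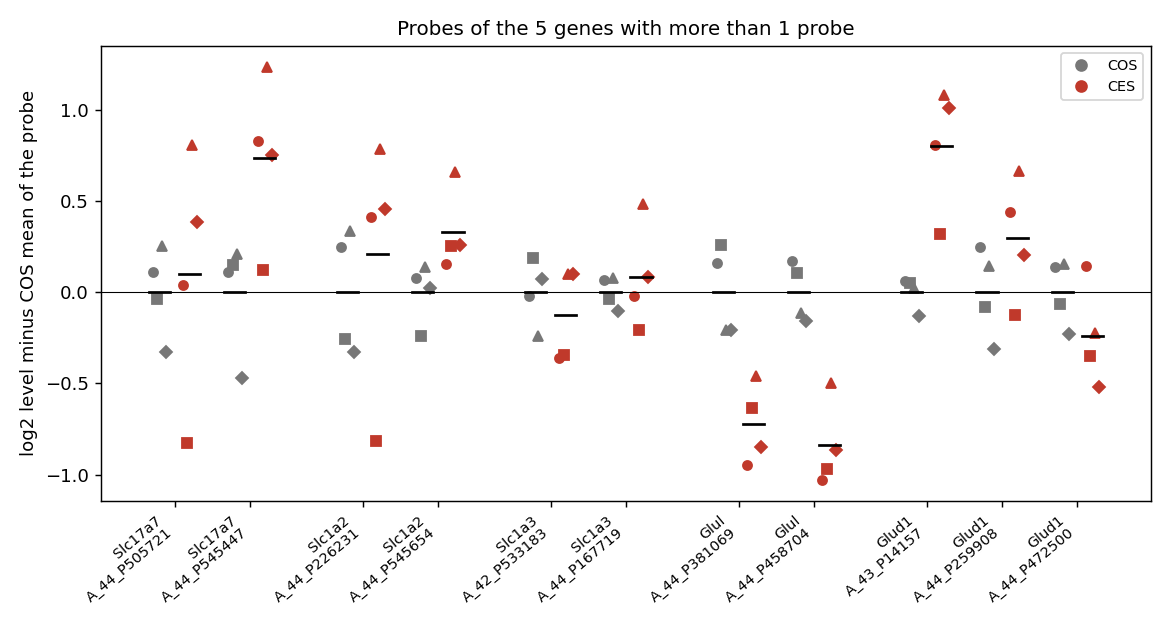
Log2 level of each probe minus its COS mean (y axis) in COS (grey) and CES (red) rats, for the 5 genes with more than 1 probe. Symbols mark rats 1 to 4 (circle, square, triangle, diamond) and black lines the group means. The Glul probes run together at −0.72 and −0.84, and the Glud1 probes spread from −0.24 to 0.80.

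Other genes that handle glutamate were read from a list of 49, of which 45 were quantified. In CES, 4 were called higher and 13 lower, beside 5.79% and 28.3% of all genes, and their median difference was −0.03. The share called lower was thus near that of all genes. Under loess and Aquantile normalization the split was 13 higher and 5 lower, and the calls over all genes turned in the same way, to 13.6% higher and 9.52% lower. Without COS rat 3 no partner gene was called higher and 3 were called lower. Of the called genes, 10 had groups that did not overlap, 9 lower and 1 higher in CES, where 19.8% of all genes had every CES rat lower and 1.61% every CES rat higher. The called genes whose groups overlapped were 4 lower and 3 higher. The 3 higher were Prodh (difference 1.56), Folh1 (0.77) and Slc38a3 (0.73).

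Of 12 quantified carriers of glutamine, cystine and neutral amino acids, 1 was called higher and 5 lower. Slc1a5 (ASCT2), which exchanges glutamine and other neutral amino acids and belongs to the same family as the glutamate transporters, differed by −3.03 (adjusted p = 0.00417). It was called in 22 of 23 alternatives. Slc38a2 (SNAT2), a glutamine transporter, differed by −1.38 (adjusted p = 0.0046). Slc3a2, the heavy chain that the cystine-glutamate exchanger needs at the membrane, differed by −1.31 (adjusted p = 0.00564). Slc7a11, the other subunit of that exchanger, was on the list but was not quantified. The summed level of this list was 130 to 172 in the COS rats and 46.9 to 96.4 in the CES rats.

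The mitochondrial carriers divided. Slc25a18, which brings glutamate into mitochondria and is found mainly in astrocytes, was higher in CES by 1.64 (standard error 0.32, adjusted p = 0.00648), and Slc25a13 (citrin), an aspartate-glutamate exchanger, was lower by a difference of −1.28 (adjusted p = 0.0039). Among the 17 enzymes of glutamine and glutamate, 1 was called higher and 3 lower. Aldh18a1, which starts proline synthesis from glutamate, had a difference of −1.10 (adjusted p = 0.00642). Of 6 quantified genes of glutathione and N-acetylaspartylglutamate metabolism, 1 was called higher and 3 lower. The last were the glutathione enzymes Gss (−0.95, adjusted p = 0.0117) and Gclc (−0.76, adjusted p = 0.0163) and the N-acetylaspartylglutamate synthetase Rimklb (−0.59, adjusted p = 0.0279), and none of these was called under loess and Aquantile normalization. Of 5 genes listed as transporter binding proteins, Gps2 was called lower (−0.76, adjusted p = 0.0121, but 0.0522 under loess and Aquantile normalization) and none was called higher. Without COS rat 3, only Slc1a5, Slc38a2 and Slc25a13 kept an adjusted p under 0.05.

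**Figure D4:**
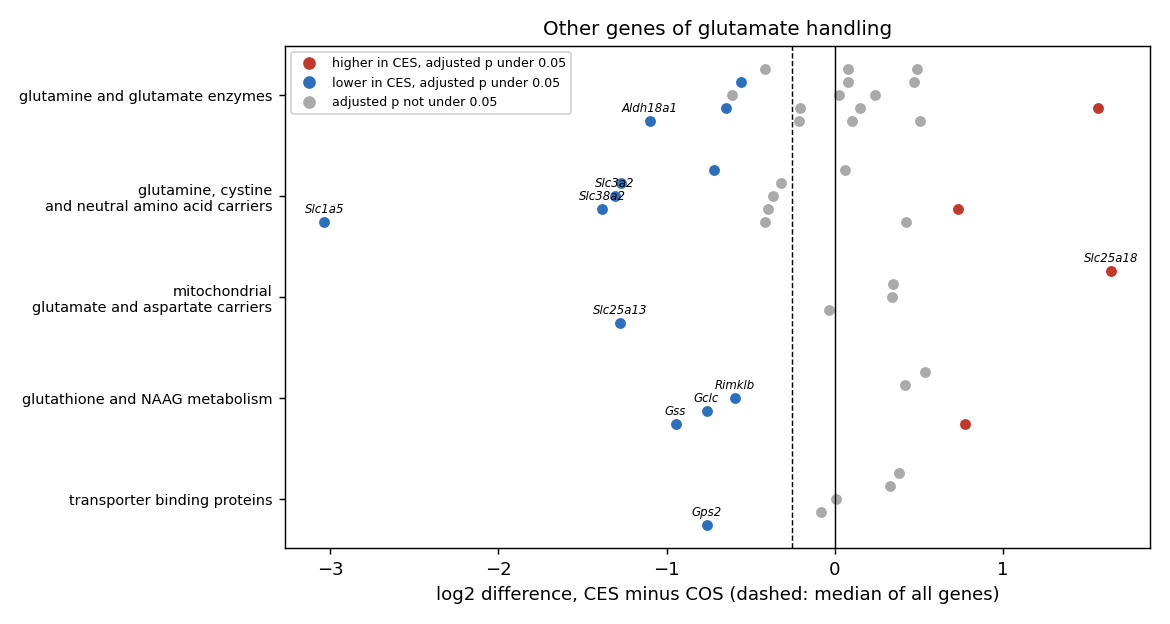
Log2 difference CES minus COS (x axis) of 45 other genes of glutamate handling, 1 point per gene, in 5 groups (y axis). Red and blue points passed limma's test at an adjusted p under 0.05, and names mark those whose groups did not overlap. Slc1a5 lies farthest to the left at −3.03 and Slc25a18 farthest to the right at 1.64.

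Markers of the cells that could carry these transcripts were read beside the 5.79% of all genes called higher and the 28.3% called lower. Of 5 quantified CA1 and CA3 pyramidal markers, 3 were called higher in CES, Fibcd1, Wfs1 and Pou3f1, and none lower. Fibcd1 was well above background in none of the COS rats and in 2 CES rats. Their summed level was 6.89 to 9.93 in COS and 9.53 to 23.5 in CES rats, beside the higher Slc17a7, and their part in it was not tested. Of 9 neuron markers, 2 were higher (Syt1 and Stmn2) and 1 lower (Nefl), with Map2 at a difference of 0.29. The granule cell marker Prox1 was not quantified, Calb1 had a difference of −0.28, and of 6 markers 2 were higher (Neurod1 and Ntng1) and 3 lower (Dsp, C1ql2 and Tdo2). Of these, Calb1, C1ql2 and Neurod1 were well above background in every rat and Tdo2 in none. Mossy cell and interneuron markers had none higher and 3 of 9 lower (Sst, Npy and Vip), with Calb2 and Drd2 not called. Among microglia markers 1 of 8 was higher (P2ry12) and 4 lower (Cd68, Itgam, Csf1r and C1qa), with Aif1 not called, and among endothelial markers 1 of 5 was higher (Slco1c1) and 3 lower (Flt1, Tek and Vwf), with Cldn5 not called. None of 7 oligodendrocyte markers, Mbp included, and none of 6 choroid plexus markers, Ttr and Folr1 included, was called. The choroid plexus sum, most of it from Ttr, ran from 13.5 to 619 in COS and from 16.5 to 193 in CES rats.

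For each member the gene with the nearest profile over the 8 rats was found, as the smallest root mean square difference of log2 levels centred on each gene's own mean. Slc17a6 ran nearest to Fcgr2al1, Stk17b and Jun (0.13, 0.14 and 0.15). Slc17a7 was nearest to Adgrb2 (0.04), Slc17a8 to Chrd among named genes (0.27) and Slc1a6 to Ldb2 among named genes (0.29). For Slc1a1 it was Fbxw5 (0.06) and for Slc1a2 it was Slc25a12 (0.05), a mitochondrial aspartate-glutamate carrier that was itself on the list of partner genes. Glul was nearest to Sox10 (0.10), Glud1 to Cnrip1 (0.03) and Slc1a3 to RGD1565579 (0.09). The distances are larger for the dim genes Slc17a8 and Slc1a6, whose levels spread more within a group.

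RefSeq start sites (GRCr8) were listed for 8 of the 9 genes, with 12 windows of 250 bases before the start. The palindromic estrogen response element, a pair of half-sites GGTCA and TGACC with 3 bases between them, was in none of them and in 0.0239% of the windows of all genes. Its half-site GGTCA, read on both strands, was in 1 window, that of Slc17a8, and in 35.4% of all windows. A GC box (GGGCGG, either strand) was in 5 windows of 4 members, against 30.5% of all windows, and neither the AP-1 letters TGANTCA (6.34% of all windows) nor the cAMP response element TGACGTCA (1.59%) was in any. A match or its lack is a description of these letters only. The windows of Slc17a7 and Slc17a6, the vesicular transporters that differed in opposite directions, are printed as far as the annotated gene start, with GC boxes in capitals. They lie at chr1:104785955-104786171 and chr1:110348197-110348446, both on the plus strand, and only the first holds a GC box, 3 times, with the last pair sharing a base.
Slc17a7: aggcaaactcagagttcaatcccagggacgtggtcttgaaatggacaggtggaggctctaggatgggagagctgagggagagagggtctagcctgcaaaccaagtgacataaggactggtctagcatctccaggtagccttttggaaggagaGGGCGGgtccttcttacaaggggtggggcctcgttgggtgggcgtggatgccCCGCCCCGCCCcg
Slc17a6: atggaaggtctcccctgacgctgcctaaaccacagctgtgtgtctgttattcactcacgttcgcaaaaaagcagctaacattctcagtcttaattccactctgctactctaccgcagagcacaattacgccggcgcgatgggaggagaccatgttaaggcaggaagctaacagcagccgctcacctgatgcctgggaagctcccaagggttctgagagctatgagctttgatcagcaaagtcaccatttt

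With the all-gene median of each alternative taken off, each of the 9 differences had the same sign in every alternative in which the gene was quantified. Those of Slc17a6 ran from −1.58 to −1.16, of Glul from −0.63 to −0.44, of Slc17a7 from 0.82 to 1.14, of Slc1a1 from 0.65 to 0.80, of Slc1a2 from 0.45 to 0.69 and of Glud1 from 0.58 to 1.06. The dim genes moved more, Slc1a6 from 1.13 to 2.37 and Slc17a8 from 0.25 to 1.64. The alternatives that changed only the test kept the reported value by construction.

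**Figure D5:**
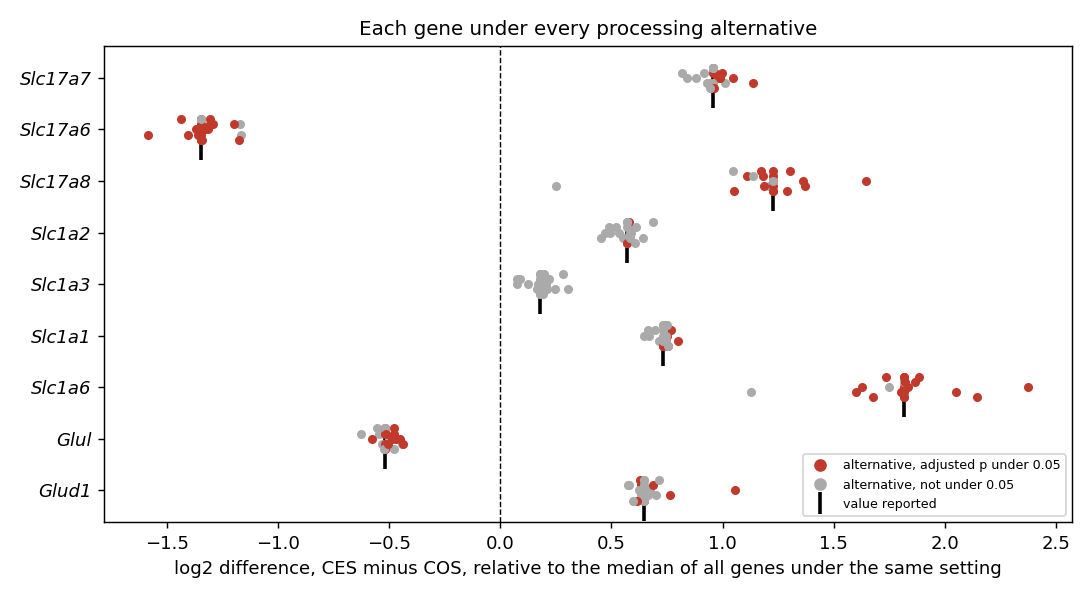
Log2 difference CES minus COS of the 9 genes less the all-gene median of the same alternative (x axis) under every alternative in which the gene was quantified, 1 point per alternative, red where the adjusted p was under 0.05, and with the reported value as a black bar. Every point of Slc17a6 and Glul lies below 0 and every point of the other genes above it. Alternatives that changed only the test have the reported value by construction.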

How the data were processed

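Total RNA from the dentate gyrus of 8 rats (4 COS, 4 CES) was labelled and hybridized to 4 arrays. The authors deposited scanner files with the intensity of each spot and its background, as written by Agilent Feature Extraction 10.7.3.1 before normalization, and a log2 table that equals the log2 of median signal minus background of each channel, less a constant. Spots with foreground at least 2 times background in all rats were kept (27642 of 43379), scaled to the channel's median valid signal and averaged per gene, following the study's methods. Probes took RefSeq names where their accession matched (17512 of 41012). Groups came from the sample records, and positions (rn4) from the files. The groups were compared with limma 3.58.1 (R 4.3.3), two-sided, with dye as a term, array as a random block (correlation −0.01) and Benjamini-Hochberg adjustment. This array correlation depended on the processing. It was 0.24 with loess and Aquantile normalization, 0.57 with normexp background correction and −0.50 with no dye term. The median standard error was 0.20, and the number of arrays limits the precision. Each array held 1 group, so an array effect cannot be fully told apart from the group. On simulated data of 21372 genes, 100 were changed by 1 and 100 by 2 (log2), with no array correlation. The fit recovered 45% of the changes of 1 and 93% of the changes of 2. Far fewer genes were changed there than were called here, so these shares do not give the power of this comparison. Alternatives covered background correction, normalization, filters, dye, block, probe choice, the methods' t-test, the deposited table, and each rat left out in turn. Named were all 9 members, called partner genes without overlap (at most 12), and of each marker list its first 2 genes and those called, except for an item that is not reported here. The members and gene lists were chosen with earlier results of these data known.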

Additional observations from a re-analysis of the deposited data

Results flagged for a closer look

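Of 18 groups of 4 rats, 9 genes in 2 groups each, 1 held a rat far from the others by Dixon's criterion, which chance alone meets in about 1 group in 20. It was Slc17a7 in COS rat 4, whose log2 level of 4.55 lay below the other COS rats by 0.853 of the group's range. Without that rat the difference of Slc17a7 was 0.61 (adjusted p = 0.102, limma).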

How the results depend on the processing

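Over all genes 7292 were called. The count was 587 with normexp background correction, 3210 with no filter on valid spots, 4107 with foreground at least 3 times background, 0 with the methods' t-test after adjustment (6114 at an unadjusted p under 0.05) and 1194 (without COS rat 3) to 8862 (without CES rat 2) leaving out 1 rat. Members called higher, 3 as reported, were 6 with loess and Aquantile normalization, quantile normalization, scaling on spots valid in every rat or the deposited log2 table, 1 with no filter, 0 with normexp or the methods' t-test, and 1 to 5 leaving out 1 rat. Members called lower, 2 as reported, were 1 under those 4 normalizations, with no filter or with the 3-fold filter, 0 with normexp or the methods' t-test, and 0 to 2 leaving out 1 rat. Partner genes called, 17 as reported, were 2 with normexp, 7 with no filter, 0 with the methods' t-test and 3 to 22 leaving out 1 rat. The median difference of the members was 0.79 with scaling on spots valid in every rat and 0.74 in the deposited table. The sign of Slc1a3 turned, to 0.11 with normexp, 0.27 with loess, 0.25 with quantile normalization, 0.33 with scaling on spots valid in every rat, 0.044 with the 3-fold filter, 0.31 in the deposited table and 0.033 without CES rat 2 (−0.23 to 0.033 leaving out 1 rat). The cause was not tested. Same-numbered rats had correlations of −0.17, −0.28, −0.20 and 0.08 after group and dye. Removing group and dye from so few rats by itself shifts such correlations below 0. They therefore do not settle whether the numbers pair the rats. With the replicate number as a block, 7224 genes and 2 members higher and 2 lower were called, and Slc17a7 had an adjusted p of 0.0543. Slc17a8 and the COS level of Slc1a6 were limited by low signal over background.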

Other observations

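Some values of single rats are not given above. Slc1a5, the partner gene with the largest difference, had log2 levels of 4.46, 4.59, 4.31 and 3.85 in the COS rats and of 0.66, 3.05, 0.90 and 0.46 in the CES rats. Slc25a18 had 1.82, 1.76, 1.34 and 0.83 in the COS rats and 3.27, 2.00, 3.73 and 3.32 in the CES rats. In both genes CES rat 2 lay closest to the COS rats, with no overlap between groups.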
